A study of Homo sapiens with 15 samples.

Results

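The cytosolic ribosomal proteins are described here across the cardiac differentiation of H1 cells, a line of human embryonic stem cells. Members were the genes whose symbol is RPL or RPS followed by a number, with or without a final letter, together with RPLP0, RPLP1, RPLP2 and RPSA. This rule used names alone and found 84 of the 60605 genes in the table, 52 of the large subunit and 32 of the small subunit, spread over 21 chromosomes. Of the 84, 7 were paralogs of another member (RPL3L, RPL7L1, RPL10L, RPL22L1, RPL26L1, RPL39L and RPS27L) and 77 were not. The rule left out some genes that also encode parts of the ribosome, and of these RACK1, FAU and RPL36AL are given beside the members.

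Bulk RNA-seq was performed on 15 libraries of wild-type H1 cells. Libraries of days 0, 1 and 2 were taken before the culture was divided, and cells were driven toward mesendoderm by activating WNT with CHIR99021. From day 2 onward 3 arms had 1 library each on days 3, 5, 7 and 10. NP-ctrl cells were not passaged and received no WNT inhibitor, NP-IWP2 cells were not passaged and received IWP2 (which blocks WNT secretion), and passaged cells were dissociated at day 2 and plated again without the inhibitor. Throughout, values of the arms are given in the order NP-ctrl, NP-IWP2, passaged. The series is 1 cell line and each day of an arm is 1 library, so no library has a biological replicate.

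A ribosome is built of ribosomal RNA and one copy of most ribosomal proteins, so cells make these proteins in matched amounts. Their mRNAs are short and abundant, and most begin with a terminal oligopyrimidine (TOP) tract, a C at the first base followed by a run of C and T, through which the mTOR kinase and LARP1 set their translation. Proliferating pluripotent cells are known for high ribosome production, and a few paralogs replace their partner only in some tissues, such as RPL3L in striated muscle.

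The TOP tract is a sequence that most members share and that the rule did not use. A tract was counted where the first transcribed base of the RefSeq entry (GRCh38.p14, read on the strand of the gene) was C and at least 4 further bases were C or T. An entry was found for 67 of the 84 members, and 47 of these (70.1%) had a tract, against 1404 of 27305 genes with an entry (5.14%). Among the members with an entry, 46 of the 62 that are not paralogs had a tract and 1 of the 5 paralogs did. The starts of 9 members are printed to show how the start differs between the most abundant member, the member with the largest change over days and paralogs beside their partners. Each line holds 25 bases before the start and 15 bases from it, with the tract in capitals, read 5′ to 3′.
RPS12 (chr6:132814544-132814583, plus strand): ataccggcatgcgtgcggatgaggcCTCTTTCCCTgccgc
RPL41 (chr12:56116608-56116647, plus strand): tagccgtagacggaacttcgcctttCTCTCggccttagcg
RPS27 (chr1:153990737-153990776, plus strand): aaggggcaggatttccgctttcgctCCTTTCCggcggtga
RPS27L (chr15:63157463-63157502, minus strand): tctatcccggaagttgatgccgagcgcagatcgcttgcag
RPL22 (chr1:6199581-6199620, minus strand): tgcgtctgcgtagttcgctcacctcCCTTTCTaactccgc
RPL22L1 (chr3:170870181-170870220, minus strand): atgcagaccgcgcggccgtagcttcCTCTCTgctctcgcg
RPL26 (chr17:8383179-8383218, minus strand): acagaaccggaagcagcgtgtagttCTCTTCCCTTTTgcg
RPL26L1 (chr5:172958704-172958743, plus strand): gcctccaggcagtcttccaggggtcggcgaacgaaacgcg
RPL7L1 (chr6:42879591-42879630, plus strand): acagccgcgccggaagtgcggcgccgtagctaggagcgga
The tract was 10 bases in RPS12, 5 in RPL41, 7 in RPS27 and RPL22, 6 in RPL22L1 and 12 in RPL26. RPS27L, RPL26L1 and RPL7L1 had none at the annotated start.

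Total counts were 13254723 to 20250115 per library, with a median of 15269132. Marker genes followed the differentiation in part. FPKM (counts scaled by exonic length and by the total count) of POU5F1, a pluripotency factor, was 625 on day 0 and at most 0.03 on day 10. NANOG went from 37.2 to at most 0.03. DPPA4 was at 209 on day 0 and at 15.1, 9.45 and 1.68 on day 10. TDGF1 went from 228 to 0.98, 8.55 and 48.1, and in passaged cells it was at 2.34 on day 5. MIXL1, a mesendoderm marker, was at 789 on day 1, and in passaged cells at 1.77 on day 5 and 8.33 on day 10. On day 10, TNNT2, a cardiac troponin, was at 21.8, 42.8 and 55.5 across the arms, and AFP, a yolk sac and liver protein, was at 2366, 716 and 0.23. In bulk samples, fewer cells of a type and less RNA per cell cannot be told apart.

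Of the 84 members, 82 reached an FPKM of 1 in at least 1 library, a filter that 21206 genes passed, and all 82 stayed at 1 or more in every library. RPL10L, a testis paralog of RPL10, had 0 counts in every library, which allows up to 3 counts in each. RPL3L peaked at an FPKM of 0.94. The highest mean FPKM over the libraries belonged to RPS12 (1074), RPS2 (576), RPS3A (517), RPL8 (479) and RPLP0 (447). RPS12, RPS2 and RPS3A are small subunit proteins, RPL8 lies near the peptidyl transferase centre and RPLP0 is the base of the stalk that recruits elongation factors. Among members above the filter the lowest means were those of RPL36A (2.55), RPS27L (4.01) and RPS26 (5.03).

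Levels between members depend on how reads were assigned. The median exonic length used by the authors was 3064.5 bases, against 827 bases for the canonical mRNA, and per kilobase of canonical mRNA RPLP0 ranked first, before RPS2, RPL3, RPS12 and RPS3A. RPS29, whose exonic length was 9840 bases against an mRNA of 295 bases, moved from rank 70 to rank 37. The table also held 1589 rows of ribosomal protein pseudogenes, with a median of 12 per member and up to 133 for RPL21. A mean FPKM under 20 was found in 8 members that are not paralogs, a group noticed after its values were seen, which had a median of 34 pseudogene rows against 12 for the others. Exons of 34 members overlapped another gene on the same strand (12 of them a gene that is no small RNA) and those of 27 overlapped a gene on the other strand. RPL17, RPS10 and RPL36A share exons with the readthrough genes RPL17-C18orf32, RPS10-NUDT3 and RPL36A-HNRNPH2. Levels of these members, and of RPL21, RPL9, RPL39 and RPS26, are therefore uncertain.

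Members together took a share of the counts that stood at 5.51% on day 0, 6.12% on day 1 and 5.98% on day 2. On day 3 the share of NP-ctrl was 7.96% (Wilson 95% interval 7.95 to 7.97), that of NP-IWP2 5.63% and that of the passaged arm 4.55%. On day 5 the arms stood at 4.67%, 5.04% and 4.64%. They were thus apart on day 3 and close on day 5. Shares of 3.20%, 3.45% and 3.04% followed on day 7, then 2.65%, 2.56% and 2.36% on day 10. From day 3 to day 10 the share was 3.01-fold lower for NP-ctrl, 2.20-fold for NP-IWP2 and 1.92-fold for the passaged arm. All intervals here cover counting error only, since no second culture was measured and PCR copies are not independent molecules.

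**Figure D1:**
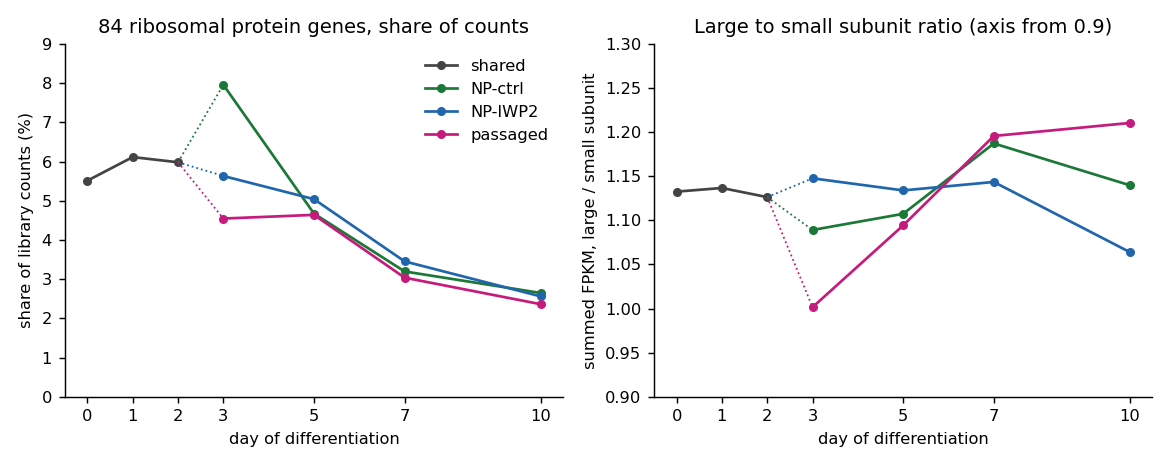
Share of library counts taken by the 84 members (left, percent) and summed FPKM of the large subunit members over that of the small subunit members (right, axis from 0.9), against day, with 1 point per library and a color per arm. The share is highest in the NP-ctrl library of day 3 at 7.96% and lowest in passaged cells on day 10 at 2.36%, and the ratio lies between 1.00 and 1.21.

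The median member level told the same course. It stood at 172, 174 and 179.8 FPKM on days 0, 1 and 2, at 256, 175 and 143 FPKM in the arms of day 3 and at 86.7, 71.9 and 78.8 FPKM on day 10. Both subunits followed this course, because summed FPKM of large over small subunit members stayed between 1.06 and 1.21 in 14 of the libraries. The exception was the passaged library of day 3, at 1.00. Counts of pseudogene rows were at most 0.54% of a library, in NP-ctrl on day 3, where the members were also highest.

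The first question was how members changed between day 3 and day 10. The quasi-likelihood test of edgeR used the 12 libraries from day 3 onward, with terms for day and arm, and p-values were adjusted over 21206 genes. Of the 82 members, 60 fell and 0 rose, with a median log2 change of -1.05 (range -2.62 to 0.40) against 0.04 for all genes. Over all genes 35.0% were called and 17.1% were called lower. Large subunit members fell in 35 of 50 cases with a median of -0.99, and small subunit members in 25 of 32 with a median of -1.09. The p-values rest on how far the 12 libraries depart from the terms for arm and day, within 1 series of cultures. They do not measure the spread among independent differentiations.

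**Figure D2:**
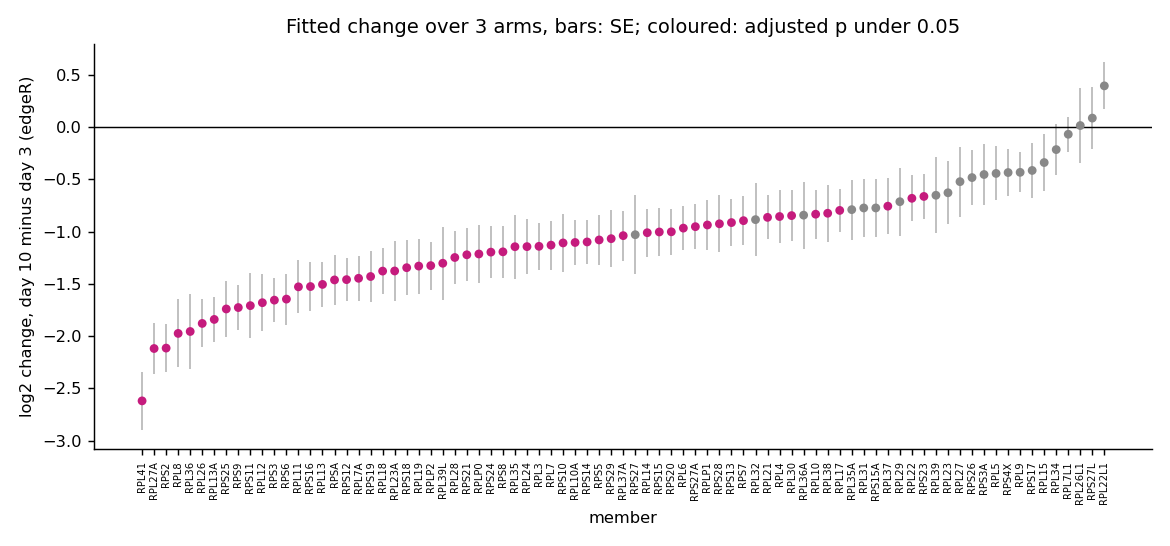
Fitted log2 change from day 3 to day 10 of 81 of the 82 members tested (points) with the SE (bars), ordered by size, and colored where the adjusted p was under 0.05. The colored members all lie below 0, from RPL41 at -2.62, and RPL22L1 is highest at 0.40.

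RPL41, the smallest ribosomal protein, had the largest change. Its FPKM was 371, 226 and 216 in the arms of day 3 and 59.3, 26.4 and 40.3 in those of day 10. No day 10 library reached any day 3 library, and the log2 change was -2.62 (SE 0.28, edgeR adjusted p = 7.68e-05). RPS2, which sits at the mRNA entry region of the small subunit, went from 1175, 808 and 854 FPKM to 217, 208 and 189.6, with a log2 change of -2.11 (SE 0.23). RPL27A, near the peptidyl transferase centre, had a log2 change of -2.12 (SE 0.24). RPL8 changed by -1.97 (SE 0.33) on the same scale. In all of these the 3 arms moved the same way.

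Members with known special roles fell within this range. RPS6, the target of S6 kinases, changed by -1.65 (SE 0.24) on the log2 scale. RPS19, which is mutated most often in Diamond-Blackfan anaemia, changed by -1.43 (SE 0.24), and RPSA, also known as the laminin receptor, by -1.46 (SE 0.24). The stalk proteins RPLP0, RPLP1 and RPLP2 changed by -1.21, -0.94 and -1.32, and all 3 were called. RPL5 and RPL11 join the 5S RNA in a particle that can bind MDM2. RPL11 fell by 1.53 on the log2 scale (SE 0.25) and RPL5 had -0.44 (SE 0.26, edgeR adjusted p = 0.216), although the difference between them was not tested.

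Of the X-linked members, RPL10 fell by 0.83 on the log2 scale (SE 0.23). RPS4X (-0.43, SE 0.23), RPL39 (-0.65, SE 0.36) and RPL36A (-0.84, SE 0.32) did not pass the test. In all, 22 members did not pass. Their adjusted p-values began at 0.0514 for RPL31, with RPS27 at 0.0535 and RPL32 at 0.0736. An unadjusted edgeR p under 0.05 was found for 68 of the 82, all lower. This is 82.9% of the members, beside 44.1% of all genes in either direction. At the other end stood RPL34 (-0.21, SE 0.24) and RPL15 (-0.34, SE 0.27), both large subunit proteins without a paralog among the members.

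The count of members that fell depended on the arms included. Without NP-IWP2 it was 24, without NP-ctrl 41 and without passaged cells 69, while the median log2 change was -1.12, -0.81 and -1.28. The count over all 21206 genes moved as well. In the same order 2235, 5619 and 7262 genes were called in either direction, against 7423 with all arms. Leaving out the NP-ctrl library of day 3 alone gave 52 members and a median of -0.78, with 6951 of all genes called.

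Within arms, single libraries were compared on log2(FPKM + 1), where a difference of at least 1.5-fold counts and no test is possible. In NP-ctrl, 75 of the 82 members were lower by this measure on day 10 than on day 3, with a median difference of -1.43 (19.0% of all genes were lower by as much). In NP-IWP2 it was 68 members with a median of -1.08 (25.6% of all genes). In passaged cells it was 52 members with a median of -0.83 (27.8% of all genes). In every arm, 70 members were lower on day 10 by any amount. The share of all genes lower by any amount was not measured.

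The course differed in when members were lower. In NP-ctrl, 81 of 82 members were lower on day 5 than on day 3, 81 were lower on day 7 than on day 5 and 69 on day 10 than on day 7. In NP-IWP2 these counts were 65, 78 and 73. In passaged cells 37 were lower on day 5 than on day 3, and then 73 and 73. These counts take any decrease, and the share of all genes lower at each step was not measured. They describe the members and do not set them apart from other genes. Members of passaged cells that were not lower on day 10 than on day 3 were RPL15, RPL22L1, RPL23, RPL26L1, RPL27, RPL29, RPL32, RPL34, RPS27 and RPS27L. On day 3 the passaged FPKM was 0.84 times that of NP-IWP2 for RPL34 and 0.72 times for RPL22L1. For the others it was between 0.38 (RPS27) and 0.58 (RPL15) times.

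**Figure D3:**
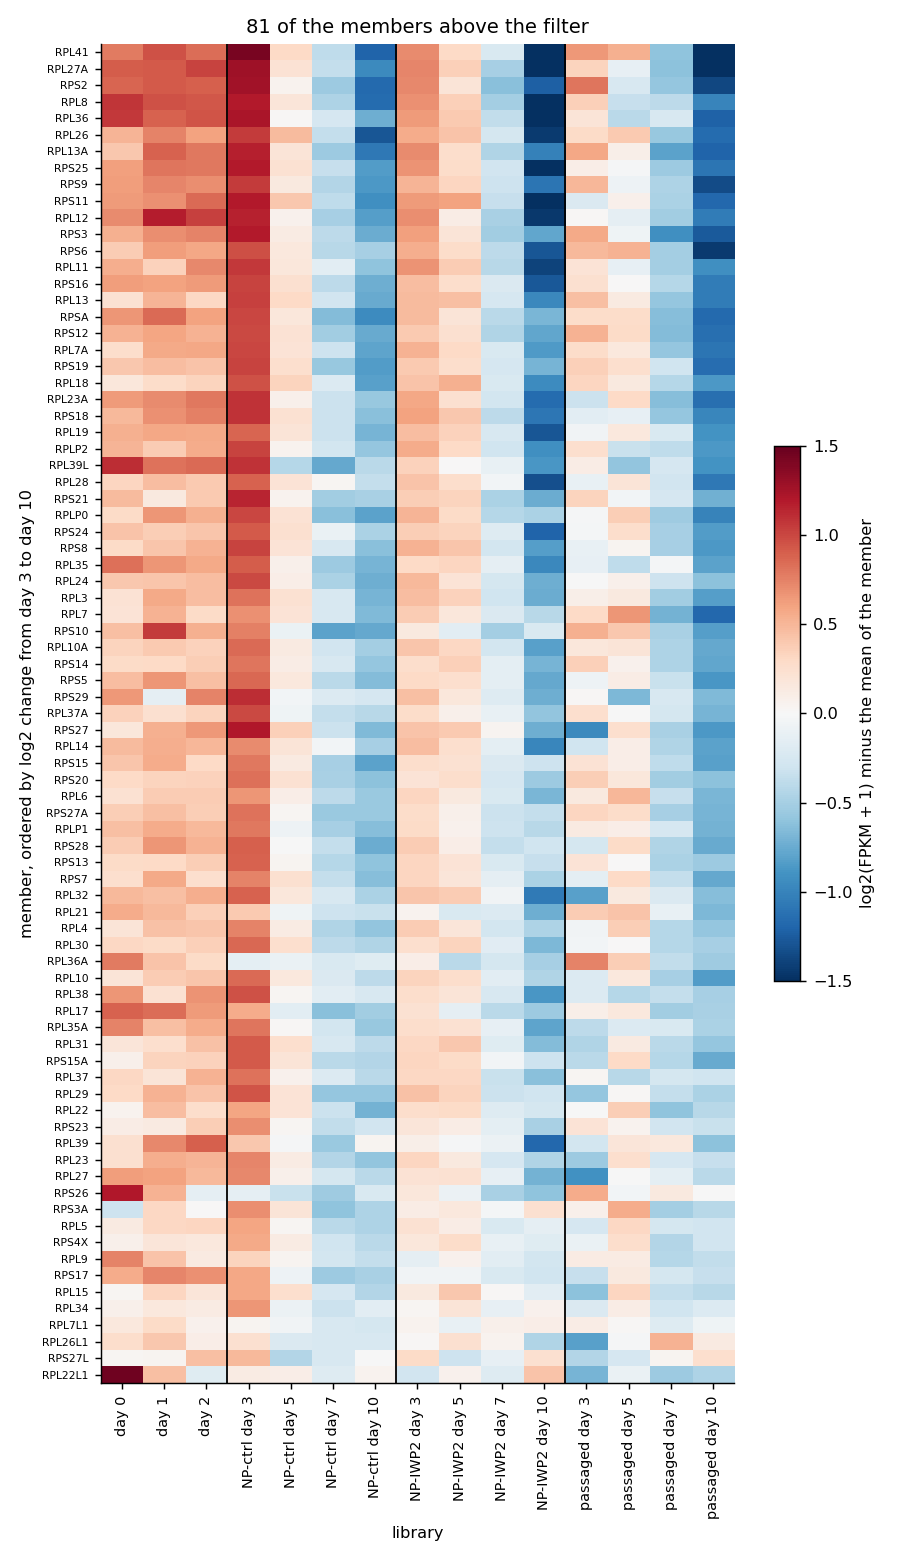
log2(FPKM + 1) of 81 of the 82 members above the filter in the 15 libraries, each minus the mean of that member over the libraries, with members ordered by the fitted change from day 3 to day 10 and lines between the shared libraries and the arms. The NP-ctrl library of day 3 is the highest of all for most members, and the bottom of the plot holds RPL22L1, RPS27L, RPL26L1 and RPL7L1.

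On day 3 the question was whether the arms already differed. The NP-ctrl library had the highest level of all 15 libraries for 69 of the 82 members, and of the day 3 libraries for 79. The share of all genes highest in this library was not measured, so these counts describe the members alone. Against day 2, only 7 members were at least 1.5-fold higher, with a median difference of 0.38 on log2(FPKM + 1), and 11.4% of all genes were higher by as much. The share of counts was 1.33 times that of day 2. NP-IWP2 on day 3 stayed near day 2, with a median difference of -0.11 and 2 members lower (7.79% of all genes). Against NP-ctrl on day 3, 18 members were lower in NP-IWP2 with a median of -0.51 (3.47% of all genes). With median-of-ratios scaling it was 57 members and with TPM it was 5. The 3.47% applies to FPKM. Here and below, counts under another scaling or against length classes have no share of all genes beside them.

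Length moved with this difference. For protein-coding genes outside the family, the median of NP-IWP2 minus NP-ctrl on day 3 went from -0.28 for canonical mRNAs up to 600 bases to 0.22 above 6000 bases. Members were lower than these genes in every length class, with medians from -0.56 to -0.25. When each member was set against its length class, the median difference was -0.30 and 5 members stayed past 1.5-fold. The same trend ran through day 10 against day 3 in NP-ctrl, from -0.52 to 0.38 in other genes, and there 71 members stayed past 1.5-fold lower with a median of -1.09.

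**Figure D4:**
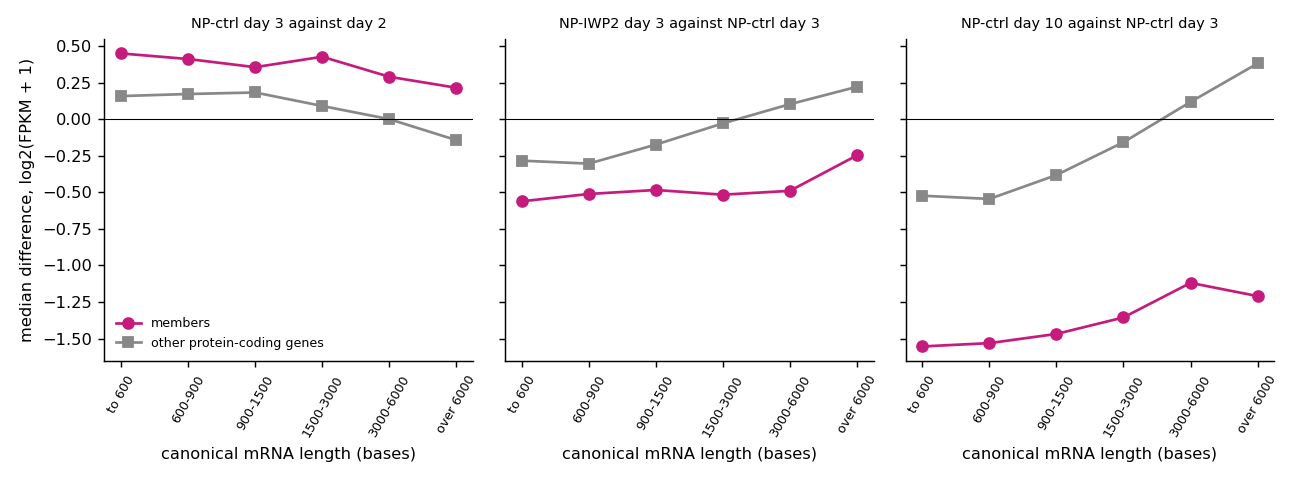
Median difference on log2(FPKM + 1) by class of canonical mRNA length, for members (circles) and other protein-coding genes (squares), in 3 pairs of libraries. Other genes slope with length in each pair, and members lie above them in NP-ctrl on day 3 against day 2 and below them in the other pairs.

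The passaged library of day 3 stood at the other side. It was the lowest of the day 3 libraries for 70 of the 82 members, and the share of all genes lowest there was not measured. Against NP-ctrl on day 3, 62 members were at least 1.5-fold lower with a median of -0.82 (10.0% of all genes; 38 members with TPM). Against NP-IWP2, 19 were lower with a median of -0.30 (12.8% of all genes), and against day 2, 29 were lower with a median of -0.46 (11.2% of all genes; 19 members with TPM). Mitochondrial transcripts took 1.53% of the counts in this library and 4.80% and 4.66% in the NP-ctrl and NP-IWP2 libraries of the same day. Without mitochondrial genes the member shares of day 3 were 8.36%, 5.91% and 4.62% across the arms. The part of mitochondrial transcripts in the numbers of members past 1.5-fold was not tested.

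Members were unequal in this library. RPS27, a small subunit protein with a zinc finger, had 511, 297 and 114 FPKM in the arms of day 3. The passaged library was 4.50-fold below that of NP-ctrl (exact 95% interval 4.26 to 4.75) and 2.62-fold below that of NP-IWP2 (2.47 to 2.77). The large subunit members RPL27, RPL32 and RPL29, chosen like RPS27 after their values were seen, were 3.10-fold (2.97 to 3.24), 3.27-fold (3.15 to 3.40) and 2.89-fold (2.79 to 3.00) lower than in NP-ctrl. RPS2 was only 1.38-fold lower (1.35 to 1.40), and RPS12 had 1949, 1295 and 1416 FPKM in the arms. On day 5 RPS27 was at 283, 289 and 264 FPKM, so the arms lay close again.

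The same model, tested for differences between arms, called none of the 82 members between arms. For passaged against NP-ctrl the median log2 difference was -0.22, and 0 members were called by edgeR, limma or DESeq2. Of all 21206 genes edgeR called 933 (4.40%), limma 163 and DESeq2 2150. An unadjusted edgeR p under 0.05 was found for 4 members (4.88%), beside 19.2% of all genes. The lowest edgeR adjusted p was 0.155, of RPS26 (0.63, SE 0.23). For NP-IWP2 against NP-ctrl the median was -0.14, and 0 members were called by the 3 tools. Of all genes edgeR called 4 (0.0189%), limma 0 and DESeq2 61. An unadjusted edgeR p under 0.05 was found for 0 members, beside 4.76% of all genes. For passaged against NP-IWP2 the median was -0.10, and 0 members were called by the 3 tools. Of all genes edgeR called 282 (1.33%), limma 6 and DESeq2 892. An unadjusted edgeR p under 0.05 was found for 2 members (2.44%), beside 12.9% of all genes. In simulated counts with these libraries the test between passaged and NP-ctrl recovered 14 of 100 genes changed 2-fold and 59 of 100 changed 4-fold. The changed genes were drawn from all 21206 genes above the filter, and 2-fold differences were seldom detected among them. Recovery among the members alone was not measured.

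The medians against NP-ctrl rested on 1 library. Without the NP-ctrl library of day 3 the 3 medians were -0.01 for passaged against NP-ctrl, 0.09 for NP-IWP2 against NP-ctrl and -0.11 for passaged against NP-IWP2.

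The arms of day 10 were compared in the same way. Dividing the passaged share by the NP-ctrl share gave 0.892 for counts and 0.724 for the FPKM total. Against NP-ctrl, 3 members were at least 1.5-fold lower in passaged cells with a median of -0.20 (22.6% of all genes; 26 members with TPM), and 16 in NP-IWP2 with a median of -0.13 (14.4% of all genes). Passaged cells set against NP-IWP2 gave 5 lower and 4 higher members, with a median of -0.04, while 16.3% of all genes were lower and 8.76% higher. With TPM 13 members were lower, and under median-of-ratios scaling the median was 0.12. All 6 cardiomyocyte markers (TNNT2, NKX2-5, MYH6, MYL7, ACTN2 and RYR2) were highest in the passaged library, where mitochondrial transcripts took 10.3% of the counts. Without mitochondrial genes the member shares of day 10 were 2.75%, 2.73% and 2.63% across the arms. The part of mitochondrial transcripts in the numbers of members past 1.5-fold was not tested.

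The NP-IWP2 library of day 10 was the one in which members spread most. The SD over members of the deviation from the median member was 0.51 there, against 0.15 to 0.38 in the other libraries. RPL36, a large subunit protein, was at 43.0, 15.2 and 30.7 FPKM, in NP-IWP2 2.83-fold below NP-ctrl (exact 95% interval 2.56 to 3.13). RPL41 was 2.24-fold below it (2.00 to 2.51). RPS3A, which lies near the mRNA exit, was 1.63-fold higher at 588 FPKM against 362 (1.59 to 1.66). In the same pair of libraries other protein-coding genes had a median difference of 0.25 at up to 40% GC and -0.30 above 60% GC. The mRNA of RPL36 holds 61.0% GC, that of RPL41 47.9% and that of RPS3A 42.5%, and the part of base composition in these differences was not tested.

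Members were then compared with the median member in each library. The SD of this deviation over the libraries had a median of 0.26 on the log2 scale. It was largest in RPL22L1 (0.64), RPL41 (0.59), RPS27L (0.57), RPS26 (0.54), RPL26L1 (0.52), RPL36 (0.50), RPL7L1 (0.47) and RPL8 (0.46). Paralogs made up 4 of these 8, and 5 of the 82 members above the filter. RPL41, RPL36 and RPL8 left the common course by standing higher relative to the median member on days 0 to 3 than on day 10. The low paralogs are compressed by the pseudocount, which understates changes of low genes.

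RPL22L1, the paralog of RPL22 with roles in splicing and development, had the largest deviation, both before and after day 3. With each member centered, its deviation was the highest on day 0 (1.11) and in NP-ctrl (0.65) and NP-IWP2 (1.33) on day 10. It was the lowest on day 2 (-0.59) and in NP-IWP2 on day 3 (-0.67). Over days 0, 1 and 2 its FPKM was 33.2, 16.0 and 10.02, so that day 1 was 2.07-fold lower than day 0 (exact 95% interval 1.88 to 2.29) and day 2 was 3.32-fold lower (2.96 to 3.72). No other member was lower by as much, since the lowest difference of a member between days 0 and 2 was -1.64 on log2(FPKM + 1), that of RPL22L1. RPL22 itself was at 46.9, 62.6 and 54.5 FPKM on these days. RPL22L1 was thus at 70.8% of the FPKM of RPL22 on day 0 and at 18.4% on day 2. From day 3 on it lay between 6.66 and 15.7 FPKM in all arms, and its log2 change from day 3 to day 10 was 0.40 (SE 0.22, edgeR adjusted p = 0.203), while RPL22 fell by 0.68 (SE 0.22).

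Over the shared days few of the 82 members passed 1.5-fold. On day 1, 2 members were higher than on day 0 and 3 were lower, with a median of 0.10, while 8.38% of all genes were higher and 8.58% lower. On day 2, 1 was higher and 3 were lower with a median of 0.08, which became -0.07 under median-of-ratios scaling (15.4% of all genes were higher and 12.4% lower). RPS26, which contacts mRNA upstream of the start codon, was at 12.1, 7.16 and 4.21 FPKM over these days, with day 2 at 2.87-fold below day 0 (2.40 to 3.44). Its 36 pseudogene rows limit this value.

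RPL26L1 and RPL7L1 did not pass the test over days although their partners fell, and the difference within each pair was not tested. RPL26L1, a close relative of RPL26, was at 21.1, 17.9 and 9.61 FPKM in the arms of day 3 and at 14.9, 12.8 and 19.6 on day 10. Its log2 change was 0.02 (SE 0.36, edgeR adjusted p = 0.991), against -1.88 (SE 0.23) for RPL26, and on day 10 it stood at 41.6 to 52.3% of the FPKM of RPL26 after 9.24 to 14.3% on day 3. RPL7L1, a nucleolar relative of RPL7 that acts in ribosome assembly, kept between 15.1 and 22.6 FPKM in all 15 libraries. Its log2 change was -0.07 (SE 0.17, edgeR adjusted p = 0.792), against -1.13 (SE 0.23) for RPL7. The arms of RPL26L1 overlapped between days, and RPL7L1 had the narrowest range of these paralogs.

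RPS27L, a p53 target related to RPS27, was at 5.88, 4.97 and 2.63 FPKM on day 3 and at 3.87, 4.80 and 4.86 on day 10. Its log2 change was 0.09 (SE 0.29, edgeR adjusted p = 0.854), and its 2 highest values were those of NP-ctrl on day 3 and of day 2. RPL39L, a paralog of RPL39 best known from male germ cells, fell. It had 29.0 FPKM on day 0 and 28.6, 16.7 and 14.01 in the arms of day 3, then 9.49, 6.60 and 6.49 on day 10, and the log2 change was -1.30 (edgeR adjusted p = 0.0134, SE 0.35). Of the 5 paralogs above the filter only RPL39L fell, and of the other members 59 of 77 did.

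**Figure D5:**
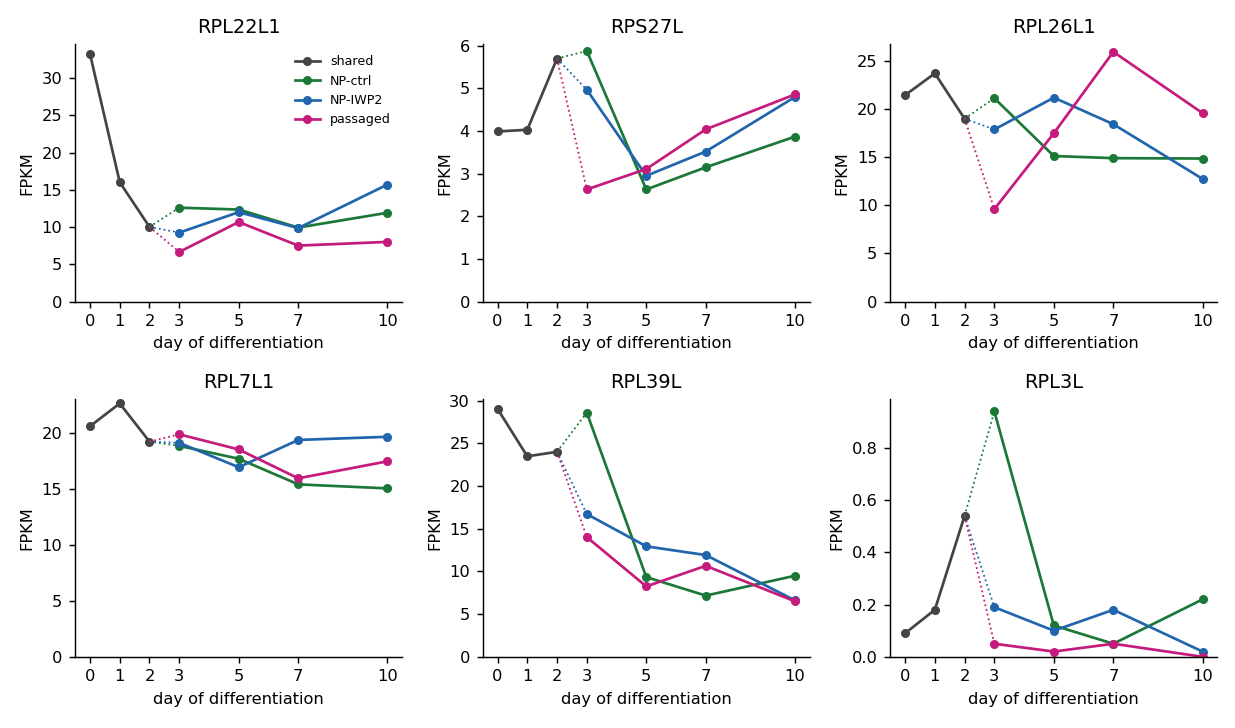
FPKM of 6 paralogs against day, 1 point per library, with a color per arm and dotted lines from the shared day 2 library, each on its own axis from 0. RPL22L1 is highest on day 0 at 33.2, RPL39L is lower in every arm on day 10 than on day 3, and RPL3L is highest in NP-ctrl on day 3 at 0.94.

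RPL3L, the striated muscle paralog of RPL3, was not higher where cardiac markers were. Its counts were 4, 9 and 30 on days 0, 1 and 2, then 42, 7 and 2 in the arms of day 3. On day 10 they were 8, 1 and 0. The 0 in passaged cells allows 3 counts, or 0.0715 FPKM, in the library with the highest FPKM of MYH6, a heart myosin (1013). NP-ctrl on day 3 was at least 13.1-fold higher than this floor. Of the 125 counts of RPL3L, 94 came from days 0 to 3, before TNNT2 passed 0.33 FPKM. The defining skeletal muscle factors MYOD1, MYOG and MYF5 had at most 5 counts in any library. Of the other skeletal muscle markers, PAX7 reached 3.16 FPKM, and ACTA1 and CKM, which heart muscle also makes, reached 34.7 and 189 FPKM, both in passaged cells on day 10.

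Members with and without a TOP tract are set side by side here as a description. Of the 47 members with a tract, all tested, 38 fell from day 3 to day 10 with a median log2 change of -1.20. Of the 19 tested members whose entry had none, 10 fell with a median of -0.85. The 19 include the paralogs RPS27L, RPL26L1 and RPL7L1, which did not pass the test, so tract and paralog status overlap here. Other genes with a tract had a median of -0.06 and 24.8% of them were lower, against 0.02 and 20.7% for other genes without one. Of the starts printed above, RPL22L1 has a tract and did not pass the test, and RPL41 has the shortest tract and the largest change.

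Related genes were taken from lists of known function, in the same test of day 10 against day 3, in which 17.1% of all genes were lower and 17.9% higher. Of the ribosomal proteins outside the rule, RACK1 (a scaffold, -1.13, SE 0.24) and RPL36AL (-0.86, SE 0.21) fell, and FAU had -0.60 (SE 0.26) and did not pass. Translation factors and other genes with TOP transcripts fell in 9 of 18 cases and 0 rose. Those that fell included HNRNPA1 (-1.47) and PABPC1, the poly(A)-binding protein (-1.31). EEF1G had the largest value (-2.69), at a mean FPKM of 1.22. Host genes of small nucleolar RNAs fell in 7 of 13 cases and 0 rose, led by SNHG15 (-1.05), ZFAS1 (-1.04) and SNHG29 (-0.91). Of 32 genes of ribosome assembly 17 fell, led by NHP2 (-2.05) and FBL, the methyltransferase fibrillarin (-1.96), then BOP1 (-1.78), and 1 rose, SBDS (1.16), which helps release EIF6.

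Of 16 genes of RNA polymerase I and 5S transcription 8 fell, led by POLR1H (-1.25), TAF1C (-1.16) and POLR1G (-0.96), and 1 rose, the initiation factor RRN3 (0.56). Of 22 genes of growth control 5 fell and 3 rose, beside 17.1% and 17.9% of all genes. MYCN, which drives ribosome genes, fell by 2.43 on the log2 scale, and the mTOR partner MLST8 and the mTOR inhibitor DDIT4 fell by 1.47 and 1.96, while SESN3, LARP4 and RPS6KB1 rose by 0.86, 0.80 and 0.55. Of 18 p53 targets, 6 fell and 3 rose, beside the same background. BAX (-1.72) and BBC3 (-1.57), which promote apoptosis, fell, and FAS, a death receptor, rose by 2.83.

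Between arms 2 of the 123 tested genes of these lists passed the test, both in passaged against NP-ctrl. This is 1.63% of them, beside 4.40% of all genes in that comparison. HEATR3, which carries RPL5 and RPL11 into the nucleus, was higher in passaged cells (0.67 on the log2 scale, edgeR adjusted p = 0.0406). FAS was lower (-1.63, adjusted p = 0.0396).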

How the data were processed

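Per the labels and the methods, RNA was made into cDNA and libraries with a SMRTbell kit, and the authors processed reads with cutadapt (1.9.1), HISAT2 (2.0.1, hg38) and HTSeq (0.6.1). That kit serves long reads and these tools short reads, so which reads were counted is unresolved, and whether strand was used is not given in the sources used here. The authors deposited raw counts per gene and FPKM values, which equal the counts per exonic length and total count (recomputed within 0.005). Groups came from the sample labels. Genes with FPKM of at least 1 in any library were tested on counts with edgeR (4.0.16, TMM, quasi-likelihood; R 4.3.3) over days 3 to 10 with arm and day as terms, adjusted by Benjamini-Hochberg at 0.05. limma (3.58.1) and DESeq2 (1.42.0) were alternatives. Single libraries were compared on log2(FPKM + 1), with Wilson or exact 95% intervals. mRNA length, GC and overlaps came from GENCODE 44, where 82 of 84 members had identical coordinates, and starts from RefSeq.

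The edgeR step was tested on simulated data of 21206 genes (day 10 against day 3: 9 of 100 2-fold and 56 of 100 4-fold changes recovered, 3 false calls). Named members were the 5 highest and 5 lowest by mean FPKM, paralogs and partners, up to 5 called members per test and direction, the 8 with the largest SD of the deviation, members with known roles and up to 3 called genes per list. The members and lists were chosen with earlier results of these data known. One member and 1 related gene are counted in the totals but not reported here by name or drawn.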

Additional observations from a re-analysis of the deposited data

How the results depend on the processing

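Depth covers counting error only, 1 library per day and arm leaves no replicate error, and the tests resolved few 2-fold changes. Pairing by replicate was not possible because the labels give no replicate numbers to block on and each group has 1 library. Day and arm are terms of the test itself. Causes of the differences below were not tested. The fall of members from day 3 to day 10 was called for 63 to 67 members under limma, DESeq2, other scalings, no filter and day as a number, against 60. When an arm was left out it was called for 24 to 69 members, while 2235 to 7262 of all genes were called, against 7423 with all arms. Between arms the count was 0 throughout, except that without a filter 1 member, RPL3L, was called in passaged against NP-ctrl.

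Of the pairs of libraries, 2 turned direction under median-of-ratios scaling, day 2 against day 0 (0 members, median -0.07) and passaged against NP-IWP2 on day 10 (3 members lower and 9 higher, median 0.12). That scaling also gave 0 members for day 1 against day 0, 57 for NP-IWP2 against NP-ctrl on day 3 and 1 for passaged against NP-ctrl on day 10. With TPM the counts were 3 for NP-ctrl on day 3 against day 2, 19 for passaged on day 3 against day 2, 5 and 38 for NP-IWP2 and passaged against NP-ctrl on day 3, and 26 and 13 for passaged against NP-ctrl and NP-IWP2 on day 10. At 2-fold, 0 members were higher on day 1 or day 2 than on day 0 (1 and 2 were lower), and 0 were higher in NP-ctrl on day 3 against day 2. At 2-fold, 0 were lower in NP-IWP2 on day 3 against day 2, in NP-IWP2 against NP-ctrl on day 3, and in passaged against NP-ctrl or NP-IWP2 on day 10. At 2-fold, 10, 26 and 4 were lower for passaged on day 3 against day 2, NP-ctrl and NP-IWP2, then 44 and 31 for day 10 against day 3 in NP-IWP2 and passaged cells, and 3 for NP-IWP2 against NP-ctrl on day 10. Set against length classes, an alternative chosen after seeing the data, day 1 and day 2 against day 0 gave 4 and 2, NP-ctrl on day 3 against day 2 gave 2, and NP-IWP2 against NP-ctrl on day 3 gave 5. No share of all genes is given beside the counts of this paragraph, so they describe the members alone.

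Ratios of the share kept their direction. As a share of the FPKM total, NP-ctrl on day 3 was 1.25 times day 2 and 1.32 times NP-IWP2, passaged to NP-ctrl was 0.695 on day 3 and 0.724 on day 10, and day 10 to day 3 was 0.389, 0.468 and 0.405 in the arms (NP-ctrl first, passaged last). Without mitochondrial genes these last 3 ratios were 0.329, 0.461 and 0.570, and passaged to NP-ctrl was 0.552 and 0.958. With pseudogene counts the 3 ratios were 0.335, 0.458 and 0.523, and NP-ctrl on day 3 was 1.34 times day 2. Without the 5 members with the most counts they were 0.343, 0.463 and 0.539, NP-ctrl on day 3 was 1.34 times day 2 and 1.43 times NP-IWP2, and passaged to NP-ctrl was 0.563 and 0.886.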
